A study of Mus musculus with 12 samples.

Results

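The genes described here build the entrance, the folding machinery and the disposal route of the endoplasmic reticulum (ER), and they are followed from resting B cells to antibody-secreting plasmablasts. They were chosen by name, as the rows of the count table that carry the mouse Entrez identifiers of 52 listed genes. The rule uses no measured value, although the list was drawn up with earlier results of these data known. All 52 were found among the 27179 genes of the table, as 5 genes of the Sec61 and Sec62/Sec63 translocon, 4 of the translocon-associated protein complex (TRAP), 7 of the signal recognition particle (SRP) and its receptor, 5 of signal peptidase, 12 chaperones and cofactors, 7 enzymes of disulfide formation, and 12 genes of ER-associated degradation and ufmylation. RNA-Seq had been made from 12 libraries, 2 biological replicates at each of 6 stages of splenic B cells from C57BL/6 mice, males 6 to 12 weeks old per the methods. Naive B cells carried treatment "none", whereas all other cells had been stimulated with 25 µg/ml LPS (lipopolysaccharide). Cells at 3, 10 and 33 h were sorted as CD69+ cells that still held all of their division dye, and so had not divided. On day 4 the culture was split by sorting into expanded B cells, which carried CD22 and no CD138, and plasmablasts, which carried CD138 and no CD22. The undivided cells came from a denser culture than the day 4 cells, so time, division and culture density changed together between 33 h and day 4 and cannot be told apart. The step from expanded cells to plasmablasts lies within day 4.

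As background, a secreted protein such as an antibody is recognized by SRP while its signal peptide leaves the ribosome, is docked on the SRP receptor and is threaded through the Sec61 channel, with TRAP and Sec62/Sec63 as helpers. Signal peptidase then removes the signal peptide. In the lumen the Hsp70 chaperone BiP (Hspa5) with its J-domain cofactors, the Hsp90 chaperone GRP94 (Hsp90b1), the lectins calreticulin and calnexin, and the protein disulfide isomerases fold and oxidize the chain, and Ero1 enzymes recharge the isomerases. Chains that fail to fold are trimmed by the EDEM mannosidase family, drawn out through the complex of Sel1l and the ubiquitin ligase Hrd1 (Syvn1) with the derlins, and degraded. Antibody-secreting cells are known for a large rough ER, which is built with the help of the unfolded protein response and its transcription factor Xbp1.

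Total counts ran from 23026619 to 60585587 per library, with a median of 37839944.5. Markers of the labelled cells were present. The summed level of 5 B cell markers was 9269 to 9575 CPM (counts scaled to a common library size) in naive cells and 2039 to 2095 CPM in plasmablasts. The summed level of 5 plasmablast markers ran from 96.5 to 377 CPM up to 33 h, from 1536 to 1811 CPM in expanded cells and from 15426 to 16085 CPM in plasmablasts. Most of this sum was Xbp1 at 33 h (188 and 293 CPM) and Jchain in plasmablasts (12638.5 and 11733.1 CPM). Sdc1, which encodes CD138, first went the other way, from 23.1 and 20.4 CPM in naive cells to 3.70 and 4.95 CPM in expanded cells. In plasmablasts Sdc1 stood at 106 and 105 CPM. Tnfrsf17 was near 0 before plasmablasts. Cd22 and Sdc1 encode the sorting markers of day 4, so their difference there follows in part from the sort. Of other cell types, 6 T cell markers summed to at most 3.21 CPM in any library. The 7 myeloid markers summed to 122 to 275 CPM in naive cells, 2.43 to 37.4 CPM from 3 h to expanded cells and at most 0.405 CPM in plasmablasts. After stimulation Lyz2, Csf1r, S100a8, S100a9 and Mpo stood at 0.0853 CPM or less in every library. Itgam went the other way, from 8.74 and 5.08 CPM in naive cells to 24.3 and 21.8 CPM in expanded cells. Adgre1 stood at 10.7 and 10.6 CPM in naive cells and 13.1 and 13.4 CPM in expanded cells. The 6 erythroid markers found, of 7 listed, summed to 147 to 197 CPM in naive cells and at most 2.11 CPM later. The part of these cells in the changes from naive cells was not tested. Since these are bulk samples, fewer cells of a type and less RNA per cell cannot be told apart.

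The share of RNA counts taken by these genes rose in steps, and most of the rise lay between expanded cells and plasmablasts. Together the 52 genes took 0.620% and 0.616% of all counts in the naive libraries, 1.05% and 1.34% at 33 h, 1.94% and 2.07% in expanded cells, and 5.09% and 5.15% in plasmablasts. On the per-length scale (RPKM, counts scaled to exon length and library size), the median of the 52 mean levels was 35.7 before stimulation, 41 after 3 h, 40.0 after 10 h, 56.7 after 33 h, 85.5 on expansion and 268.9 in plasmablasts. In the same libraries the constant immunoglobulin genes with Jchain took 0.733% to 1.35% of counts up to 33 h, 2.71% and 3.31% in expanded cells and 11.5% and 11.1% in plasmablasts.

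**Figure D1:**
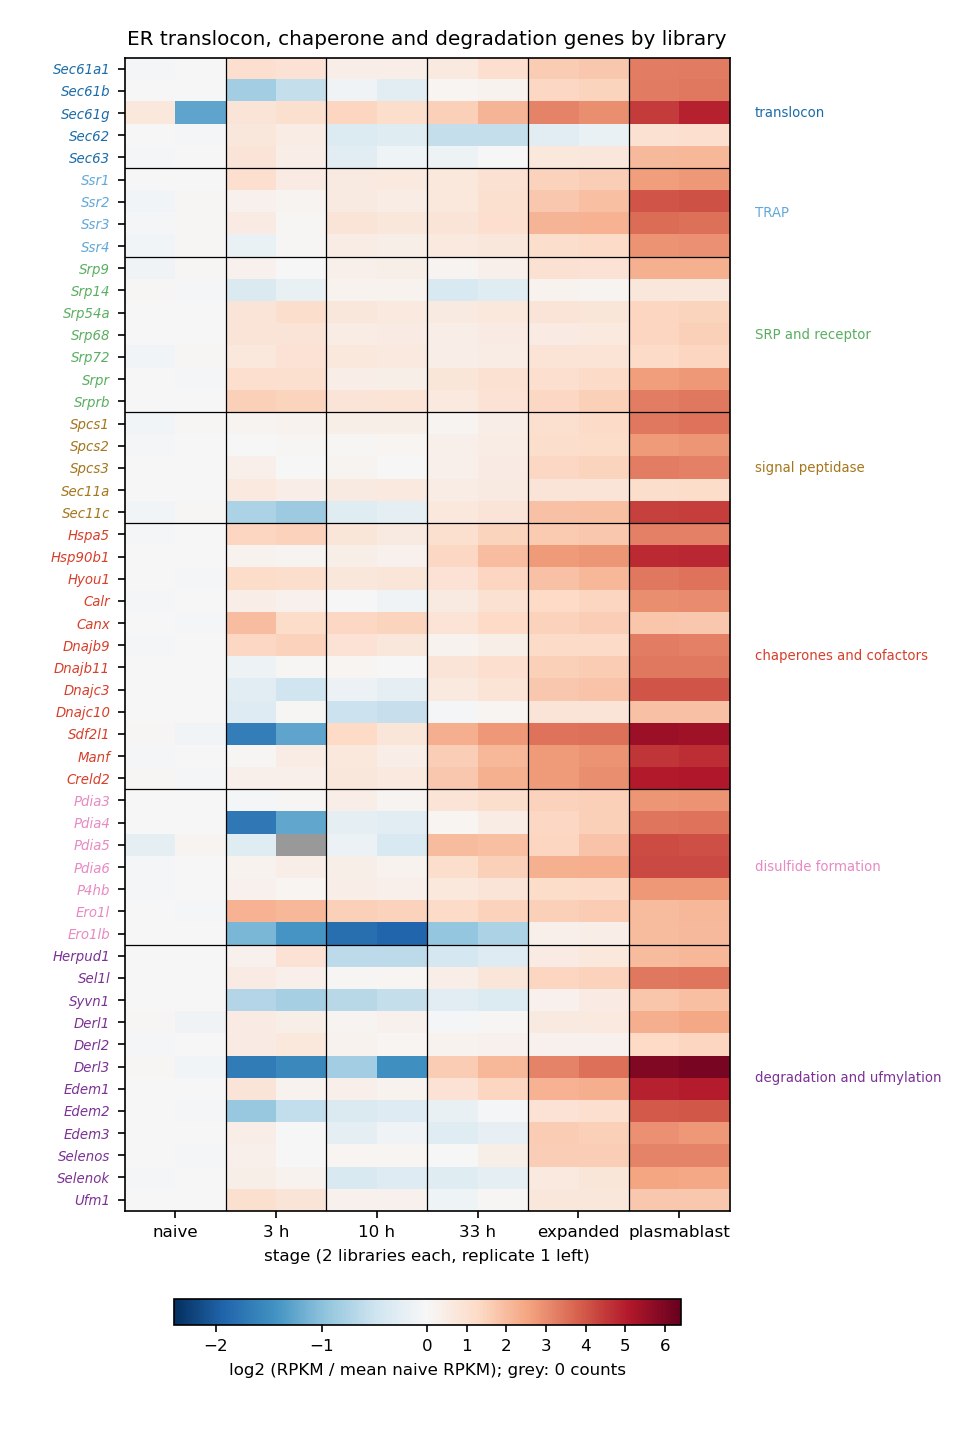
Heatmap of the 52 genes (rows, grouped by role) in the 12 libraries (columns, 2 per stage). Colour gives log2 of the RPKM over the gene's mean naive RPKM on a scale whose blue side is stretched, and grey marks a library with 0 counts. Red deepens in most rows from 33 h to expanded cells and again in plasmablasts, while Sdf2l1, Pdia4, Ero1lb and Derl3 are blue at 3 h.

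Calls of a change come from glmTreat of edgeR, which tests against 1.5-fold, at an adjusted p-value under 0.05 over all 12750 tested genes. Of the 52 genes, 51 were tested, since Ssr4 lies on the X chromosome, whose genes the fit leaves out. All 51 were called higher in plasmablasts than in naive cells, against 26.6% of all tested genes higher and 23.4% lower. In expanded cells 40 stood above naive cells (background 24.9%) and 0 below (background 22.2%), the latter also 0 by DESeq2. Read stage by stage, the steps differed. From naive cells to 3 h, 13 members rose (25.5%, background 21%) and 6 fell (11.8%, background 24.3%). From 3 h to 10 h, 2 rose (background 17.4%) and 3 fell (background 13.4%). From 10 h to 33 h, 12 members rose (23.5%, background 10.1%) and 0 fell (background 4.45%). From 33 h to expanded cells, 20 rose (39.2%, background 6.94%) and 0 fell (background 3.66%), and from expanded cells to plasmablasts 45 rose (88.2%, background 13.9%) and 0 fell (background 12.2%). The median log2 fold change of the members at these 5 steps was 0.31, -0.099, 0.32, 0.81 and 1.63, whereas that of all tested genes stayed between -0.046 and 0.018. Over the last 3 steps the count of falling members was 0 by glmTreat, 0 by glmTreat at an unadjusted p under 0.05 and 0 by DESeq2. The quasi-likelihood F-test for a change of any size placed Srp14, Dnajb9, Ufm1 and Sec62 lower at 33 h than at 10 h, by log2 fold changes of -0.54 to -0.25.

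In cells that had not yet divided, the genes that rose between 10 h and 33 h were mostly those of protein folding: 7 of 12 chaperones and cofactors, 3 of 7 genes of disulfide formation, the signal peptidase subunit Sec11c and the derlin Derl3. Of the 5 translocon, 3 tested TRAP and 7 SRP genes, glmTreat called 0 at this step, also at an unadjusted p under 0.05, and DESeq2 called 0. The median log2 fold change was 0.83 for chaperones and cofactors, 0.68 for disulfide formation, 0.36 for the translocon, 0.23 for TRAP and -0.078 for SRP and its receptor. The steepest riser was Derl3 (Entrez 70377, chr10:75893398-75895941 in GRCm38), a derlin of the export channel for misfolded proteins. Derl3 stood at 6.57 and 5.95 RPKM when naive, 1.96 and 2.14 after 3 h, 3.53 and 2.26 after 10 h and 19.5 and 26.9 after 33 h. On day 4 Derl3 was at 57 and 71.9 RPKM in expanded cells and 379 and 415 RPKM in plasmablasts. Both libraries at 33 h were thus above all 6 earlier ones, and the rise from 10 h was 7.89-fold (log2 fold change 2.98, SE 0.21, adjusted p = 1.38e-06). It was the least abundant of the 3 derlins up to 10 h and the most abundant from 33 h on, by mean RPKM.

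Among the 7 chaperones and cofactors that rose, Sdf2l1, a partner of the J-domain protein Dnajb11, was called up before 33 h, already at 10 h. Sdf2l1 stood at 15.5 and 14.2 RPKM in the naive libraries, 4.68 and 6.16 in those from 3 h, 36.5 and 25.8 from 10 h and 73.5 and 102 from 33 h. On day 4 Sdf2l1 stood at 166 and 172 RPKM once expanded and at 663 and 641 RPKM as plasmablasts. It had fallen at 3 h, rose by 10 h (log2 fold change 2.5, SE 0.20, adjusted p = 4.20e-06), and rose again by 33 h (log2 fold change 1.48, SE 0.17, adjusted p = 4.76e-04). Creld2, an ER protein with EGF-like repeats, stood at 24.6 and 22.9 RPKM (naive), 30.1 and 30.2 (3 h), 39.5 and 36.1 (10 h) and 77.6 and 117 (33 h). On day 4 Creld2 was at 159 and 184 RPKM (expanded) and 804 and 836 RPKM (plasmablasts). Its rise from 10 h to 33 h was 2.57-fold (log2 fold change 1.36, SE 0.15, adjusted p = 3.94e-04). Hsp90b1, which encodes GRP94, a chaperone of immunoglobulins and Toll-like receptors, stood at 157 and 155 RPKM when naive, 184 and 173 after 3 h, 206 and 189 after 10 h and 390.2 and 606 after 33 h. On day 4 Hsp90b1 was at 1019 and 1122 RPKM in expanded cells and 4254 and 4498 RPKM in plasmablasts. It was called at neither earlier step, rose 2.53-fold by 33 h (log2 fold change 1.34, SE 0.15, adjusted p = 6.20e-04), and in day 4 cells had the highest RPKM of all 52 genes. Manf, a secreted cofactor of BiP, stood at 31.3 and 33.5 RPKM in the naive libraries, 34.4 and 44.4 in those from 3 h, 52.5 and 44.2 from 10 h and 95.7 and 141 from 33 h. On day 4 Manf stood at 212 and 237 RPKM once expanded and at 775 and 842 RPKM as plasmablasts. Manf rose 2.44-fold at 33 h (log2 fold change 1.29, SE 0.17, adjusted p = 0.00202). For these 4 genes and Derl3 the call at 33 h held under every alternative that was run.

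The remaining 3 chaperone genes rose by smaller folds. Dnajc3, a J-domain cofactor of BiP, stood at 17.9 and 17.8 RPKM (naive), 14.9 and 12.8 (3 h), 16.2 and 15.3 (10 h) and 27.4 and 32.3 (33 h). On day 4 Dnajc3 was at 59.8 and 62.9 RPKM (expanded) and 288 and 291 RPKM (plasmablasts). Both 33 h libraries of Dnajc3 lay above all 6 earlier ones. Dnajb11, another J-domain cofactor, stood at 35.1 and 34.9 RPKM when naive, 32.1 and 36.4 after 3 h, 38.4 and 36.1 after 10 h and 61.4 and 72.9 after 33 h. On day 4 Dnajb11 was at 100.2 and 108 RPKM in expanded cells and 359 and 368 RPKM in plasmablasts. Here too the 33 h libraries were apart from all earlier ones. Calr, the lectin calreticulin, was abundant throughout, at 357 and 377 RPKM in the naive libraries, 494 and 446 in those from 3 h, 371 and 348 from 10 h and 555 and 709.9 from 33 h. On day 4 Calr stood at 885 and 951 RPKM once expanded and at 2866 and 2988 RPKM as plasmablasts. All 3 were higher in both 33 h libraries than in both 10 h libraries, by 1.89-fold (adjusted p = 0.00485), 1.8-fold (adjusted p = 0.0168) and 1.76-fold (adjusted p = 0.0447). These calls changed when single libraries were left out. Without replicate 2 at 33 h the log2 fold changes were 0.80 for Dnajc3 (adjusted p = 0.0550), 0.72 for Dnajb11 (adjusted p = 0.170) and 0.63 for Calr (adjusted p = 0.531). Without replicate 2 at 10 h the call was lost for Dnajb11 (adjusted p = 0.107) and Calr (adjusted p = 0.197), and for Calr also without replicate 1 at 10 h (adjusted p = 0.0637).

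In disulfide formation, Pdia6, an isomerase that works with BiP, stood at 103 and 109 RPKM (naive), 125 and 142 (3 h), 139.9 and 125 (10 h) and 229 and 307 (33 h). On day 4 Pdia6 was at 518 and 528 RPKM (expanded) and 2007 and 1963 RPKM (plasmablasts). Its rise at 33 h was 2.02-fold (log2 fold change 1.01, SE 0.12, adjusted p = 0.00381), and without replicate 2 at 33 h the adjusted p was 0.0611, with a log2 fold change of 0.79. Ero1lb, an oxidase that recharges the isomerases, took a different path, at 49.4 and 48.5 RPKM when naive, 22.8 and 18.3 after 3 h, 13.9 and 13.1 after 10 h and 25.8 and 29.1 after 33 h. On day 4 Ero1lb was at 61.9 and 65.7 RPKM in expanded cells and 200.3 and 208 RPKM in plasmablasts. The 33 h libraries were above the 10 h libraries by 2.03-fold (log2 fold change 1.02, SE 0.10, adjusted p = 0.00131) and yet below both naive libraries, and Ero1lb was the single member called lower at 33 h than in naive cells, against 20.8% of all tested genes (log2 fold change -0.84, adjusted p = 0.0100). Leaving out replicate 1 at 33 h took that last adjusted p to 0.0647. The isomerase Pdia5 was close to silent, with 2 and 2 counts when naive, 1 and 0 after 3 h, 3 and 2 after 10 h and 16 and 9 after 33 h. On day 4 it had 7 and 8 counts in expanded cells and 29 and 34 counts in plasmablasts. Its 25 counts at 33 h against 5 at 10 h were a ratio of 4.62, with an exact 95% interval from 1.74 to 15.4 for counting error only, and the glmTreat call (adjusted p = 0.0447) was lost without any of the 4 libraries compared, at adjusted p from 0.0856 to 0.179.

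In signal peptidase, the catalytic subunit Sec11c (Entrez 66286) stood at 108 and 117 RPKM in the naive libraries, 66.7 and 61.5 in those from 3 h, 91.9 and 95 from 10 h and 177 and 202 from 33 h. On day 4 Sec11c stood at 413 and 425 RPKM once expanded and at 2323 and 2455 RPKM as plasmablasts. It had fallen at 3 h and then rose at each of the last 3 steps, 2.03-fold by 33 h (log2 fold change 1.02, SE 0.088, adjusted p = 3.97e-04), 2.21-fold from there to expanded cells (log2 fold change 1.15, SE 0.087, adjusted p = 8.28e-05) and 5.7-fold to plasmablasts (log2 fold change 2.51, SE 0.090, adjusted p = 2.04e-09). Together with Sec11c, 5 other members were called up at all of the last 3 steps (11.8% with Sec11c, against 0.635% of all tested genes): Hsp90b1 (Entrez 22027, chr10:86690841-86705444), Dnajc3 (Entrez 100037258, chr14:118937932-118981702), Pdia6 (Entrez 71853, chr12:17266589-17284785), Ero1lb (Entrez 67475, chr13:12565818-12609533) and Derl3. When single libraries were left out, Sec11c, Ero1lb and Derl3 kept their calls at these steps. Hsp90b1, Dnajc3 and Pdia6 each lost a call, at 33 h or in expanded cells.

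**Figure D2:**
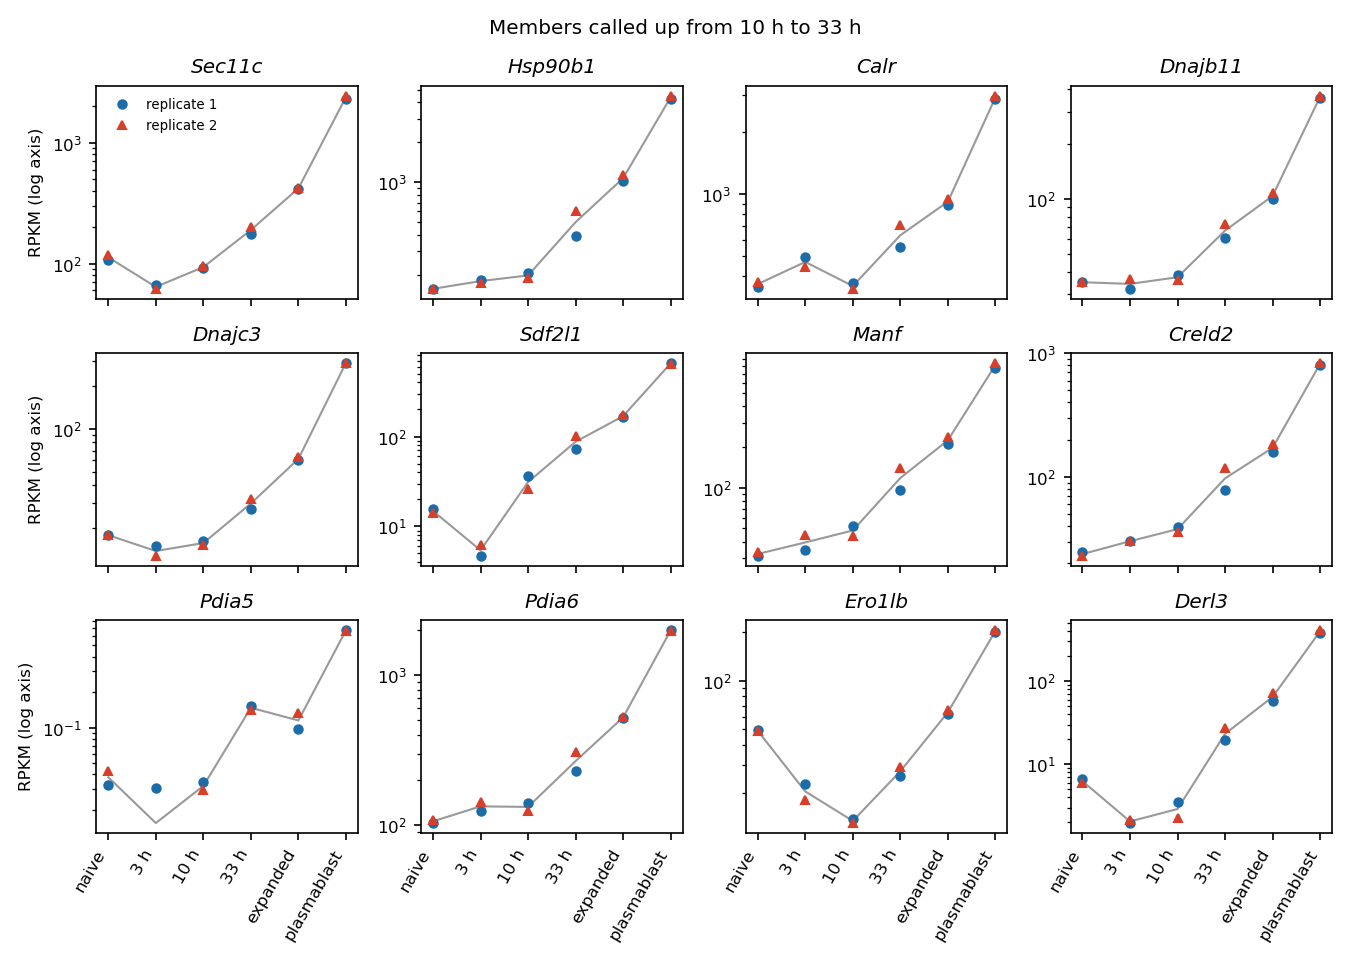
RPKM of the 12 genes called up from 10 h to 33 h, by stage, on a log axis of its own for each gene. Circles are replicate 1, triangles replicate 2, and lines join stage means; a library with 0 counts has no symbol. In all 12 panels both 33 h libraries lie above both 10 h libraries and both plasmablast libraries lie highest.

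The promoters of 10 members hold a sequence that is rare elsewhere, and it is shown here because 7 of these 10 members were called up at 33 h. The ER stress response element (ERSE: CCAAT, 9 bases of any kind, CCACG) is known from chaperone promoters, where the factor NF-Y binds the CCAAT block and ATF6 or Xbp1 the CCACG block. It was searched on both strands of RefSeq windows from 250 bases before to 50 bases after each annotated start (GRCm38.p6, the build that mm10 names). Of the 44 members with a window, 10 had an exact match (22.7%), against 16 of all 9919 tested genes with a window (0.161%), theirs included. Because the element is known from chaperone promoters, this difference was set in part by the choice of genes and is not an independent result. Below, each site is given with its flanks, 5′ to 3′ on the strand of the gene, with capitals for the CCAAT and CCACG blocks, or for CGTGG and ATTGG where the element lies on the opposite strand; Hsp90b1 holds 2 sites, and for BiP (Hspa5) the whole window before the start is shown. The first 7 belong to genes called up from 10 h to 33 h and the last 3 to genes that were not.
Hsp90b1 (chr10:86705518-86705671, minus strand): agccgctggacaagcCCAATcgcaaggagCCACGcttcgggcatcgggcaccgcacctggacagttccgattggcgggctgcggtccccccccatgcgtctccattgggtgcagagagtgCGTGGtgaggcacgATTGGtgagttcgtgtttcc
Calr (chr8:84847060-84847108, minus strand): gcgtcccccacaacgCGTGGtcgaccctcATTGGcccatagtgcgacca
Dnajc3 (chr14:118937812-118937860, plus strand): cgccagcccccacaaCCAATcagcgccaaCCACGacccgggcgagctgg
Creld2 (chr15:88819505-88819553, plus strand): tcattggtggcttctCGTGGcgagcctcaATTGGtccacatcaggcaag
Pdia6 (chr12:17266476-17266524, plus strand): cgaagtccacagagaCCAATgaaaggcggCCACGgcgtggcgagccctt
Ero1lb (chr13:12565667-12565715, plus strand): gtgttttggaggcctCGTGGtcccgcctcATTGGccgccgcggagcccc
Derl3 (chr10:75893227-75893275, plus strand): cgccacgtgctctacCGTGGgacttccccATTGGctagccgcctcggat
Hspa5 (chr2:34771840-34772089, plus strand): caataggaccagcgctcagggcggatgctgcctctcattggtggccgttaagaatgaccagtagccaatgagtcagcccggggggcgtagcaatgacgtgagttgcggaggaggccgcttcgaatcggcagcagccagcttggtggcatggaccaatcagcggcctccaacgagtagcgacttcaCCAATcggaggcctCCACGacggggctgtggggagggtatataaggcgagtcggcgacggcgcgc
Canx (chr11:50325785-50325833, minus strand): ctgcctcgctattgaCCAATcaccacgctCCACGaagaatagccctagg
Syvn1 (chr19:6046517-6046565, plus strand): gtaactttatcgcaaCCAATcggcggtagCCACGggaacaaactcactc

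All 11 sites lay before the start, with the first base from 212 bases before it in Hsp90b1 to 44 bases before it in Syvn1. From 10 h to 33 h, 7 of the 10 members with an ERSE were called up, with a median log2 fold change of 0.97, against 3 of the 33 tested members whose windows lack it, with a median of 0.19. Without replicate 2 at 33 h these counts were 4 of 10 and 1 of 33, and by DESeq2 6 of 10 and 1 of 33. Of the 8 members without a window, 2 were called up, with a median of 0.38. At the last step 9 of 10 members with the element and 28 of 33 without it were called up, at medians of 1.8 and 1.56. The other 6 tested genes with an ERSE had a median log2 fold change of -0.12 from 10 h to 33 h and -0.58 from expanded cells to plasmablasts. Of these 6, 0 were called up at either step, against 10.2% and 13.6% of the other tested genes with a window and no ERSE. The shorter ERSE-II (ATTGG, any single base, CCACG) matched in the windows of Herpud1 and Dnajb11 (4.55% of members with a window), against 0.0807% of tested genes with a window. The unfolded protein response element (UPRE, TGACGTGG) matched in 0 of the 44 members with a window, against 1.01% of tested genes with a window. All 10 members with an ERSE are genes of chaperones and cofactors, disulfide formation or degradation, so role and element cannot be told apart here. Among chaperones and cofactors with a window, Hsp90b1, Calr, Dnajc3 and Creld2 had an ERSE and were called up from 10 h to 33 h. Hspa5 and Canx had it and were not called. Dnajb11 and Sdf2l1 lacked it and were called up, whereas Dnajb9 and Dnajc10 lacked it and were not. These matches are descriptions of letters in a window and not of binding, and no test was made of the split.

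**Figure D3:**
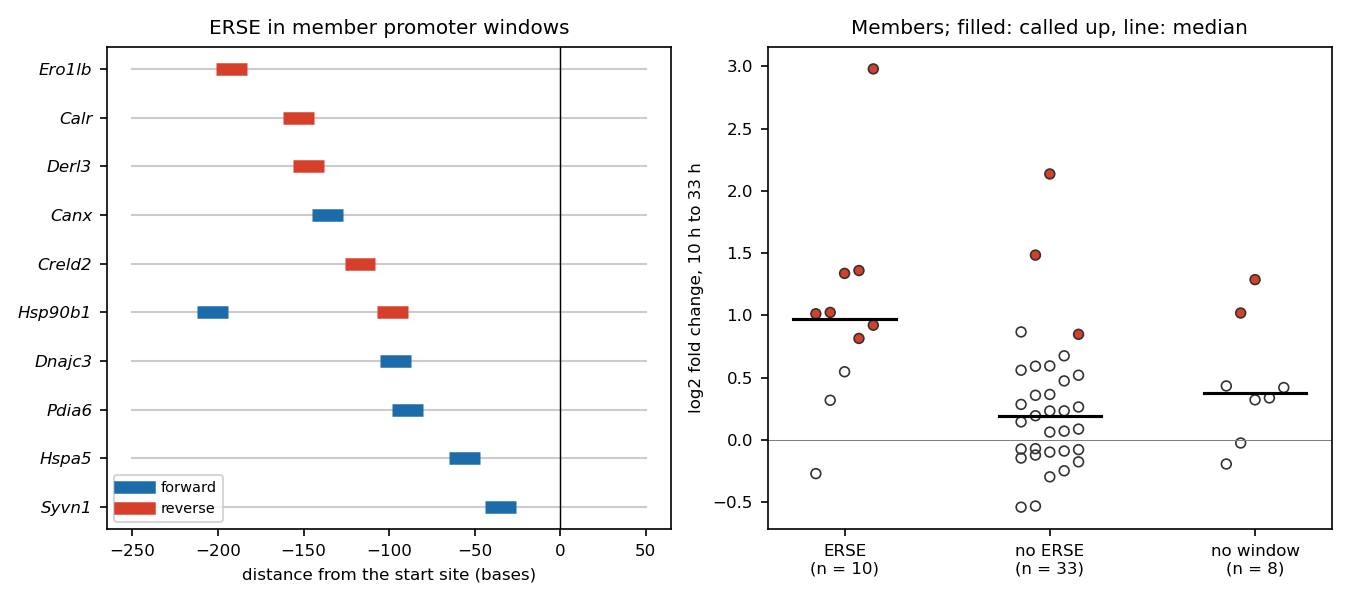
Left, positions of the ERSE (bars, by strand) relative to the start site in the windows (grey lines) of the 10 members that have it, in bases. Right, log2 fold change from 10 h to 33 h of the 51 tested members by ERSE, filled where called up, with lines at the medians of 0.97, 0.19 and 0.38; 7 of the 10 points in the left column are filled and 3 of the 33 in the middle one.

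Between 33 h and expanded cells 8 of 12 genes of degradation rose, with 2 of 3 tested TRAP genes, 3 of 5 of signal peptidase and 1 of 5 of the translocon. Without replicate 1 at 33 h or without expanded replicate 2, 5 of 12 genes of degradation, 1 of 3 of TRAP and 1 of 5 of signal peptidase were called. Edem3, of the EDEM mannosidase family, had the largest rise of all members at this step. Edem3 stood at 9.88 and 9.79 RPKM (naive), 13.4 and 10.2 (3 h), 8.52 and 9.32 (10 h) and 8.07 and 8.6 (33 h). On day 4 Edem3 was at 30.0 and 28.3 RPKM (expanded) and 73.6 and 67.6 RPKM (plasmablasts). It was called at no step up to 33 h, and expanded cells were 3.49-fold higher than at 33 h (log2 fold change 1.81, SE 0.12, adjusted p = 3.32e-06). Its relative Edem2 stood at 27.8 and 26.4 RPKM when naive, 14.5 and 17.9 after 3 h, 21.3 and 21.8 after 10 h and 24.1 and 26.6 after 33 h. On day 4 Edem2 was at 50.9 and 56.1 RPKM in expanded cells and 411 and 433 RPKM in plasmablasts. Its 3 h libraries lay below both naive ones. Edem1 stood at 17.3 and 17.5 RPKM in the naive libraries, 30.6 and 20.6 in those from 3 h, 22 and 20.3 from 10 h and 32.8 and 44.5 from 33 h. On day 4 Edem1 stood at 82.7 and 88 RPKM once expanded and at 532 and 566 RPKM as plasmablasts. The rise to expanded cells was 2.11-fold for Edem2 (adjusted p = 7.42e-04) and 2.21-fold for Edem1 (adjusted p = 0.00901), the latter with an adjusted p of 0.109 without replicate 1 at 33 h and 0.0549 without expanded replicate 2. Derl3 rose another 2.79-fold (log2 fold change 1.48, SE 0.18, adjusted p = 9.79e-04).

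The ER membrane selenoproteins Selenos and Selenok, which tie the extraction ATPase p97 to the derlins, were first called up at this step. Selenos stood at 25.6 and 24.7 RPKM (naive), 31.5 and 25.2 (3 h), 27.2 and 27.2 (10 h) and 25.4 and 32.5 (33 h). On day 4 Selenos was at 73.8 and 74.1 RPKM (expanded) and 224 and 224 RPKM (plasmablasts). Selenos rose 2.56-fold from 33 h to expanded cells (log2 fold change 1.36, SE 0.12, adjusted p = 1.06e-04). Selenok stood at 36 and 37.1 RPKM when naive, 47.9 and 42.1 after 3 h, 28.5 and 29.6 after 10 h and 29.7 and 31.3 after 33 h. On day 4 Selenok was at 57.1 and 63.6 RPKM in expanded cells and 210.1 and 205 RPKM in plasmablasts. Selenok rose 1.98-fold (log2 fold change 0.98, SE 0.095, adjusted p = 0.00187). Sel1l, the scaffold of the Hrd1 ligase complex, stood at 18.8 and 18.5 RPKM in the naive libraries, 26.9 and 23.6 in those from 3 h, 19.6 and 20.1 from 10 h and 25.4 and 31.5 from 33 h. On day 4 Sel1l stood at 48.4 and 52.5 RPKM once expanded and at 194 and 201 RPKM as plasmablasts. The 33 h libraries of Sel1l overlapped those from 3 h. Herpud1, which recruits the same complex, stood at 90.9 and 92.7 RPKM (naive), 112 and 173 (3 h), 59.7 and 59 (10 h) and 68.3 and 74.5 (33 h). On day 4 Herpud1 was at 131 and 147 RPKM (expanded) and 369.9 and 405 RPKM (plasmablasts). The expanded libraries of both were above the 33 h libraries, by 1.77-fold (adjusted p = 0.0430) and 1.95-fold (adjusted p = 0.0343). Both calls were lost without replicate 1 at 33 h, at adjusted p of 0.411 and 0.191, and without expanded replicate 2, at 0.245 and 0.194. That of Sel1l was also lost without expanded replicate 1 (0.0625) and that of Herpud1 without replicate 2 at 33 h (0.0569).

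At the membrane, Sec61b, the beta subunit of the channel, was the translocon gene called up in expanded cells. Sec61b stood at 78.2 and 78.2 RPKM when naive, 44 and 52.3 after 3 h, 73.9 and 65.5 after 10 h and 86.3 and 92.6 after 33 h. On day 4 Sec61b was at 195 and 209 RPKM in expanded cells and 787 and 820.5 RPKM in plasmablasts. Sec61b rose 2.26-fold from 33 h (log2 fold change 1.18, SE 0.099, adjusted p = 1.43e-04). Among TRAP subunits, Ssr3 stood at 31.1 and 33.6 RPKM in the naive libraries, 46.5 and 33.8 in those from 3 h, 56.5 and 54.2 from 10 h and 57.9 and 68.8 from 33 h. On day 4 Ssr3 stood at 147 and 152 RPKM once expanded and at 391 and 369.9 RPKM as plasmablasts. From 10 h on, all libraries of Ssr3 were above the naive ones. Ssr2 stood at 67.1 and 72.6 RPKM (naive), 84.8 and 77.6 (3 h), 103 and 98.8 (10 h) and 109.9 and 143 (33 h). On day 4 Ssr2 was at 230.5 and 264 RPKM (expanded) and 1126 and 1185 RPKM (plasmablasts). Ssr3 rose 2.37-fold (adjusted p = 4.73e-04) and Ssr2 1.96-fold (adjusted p = 0.00825), the latter with an adjusted p of 0.116 without replicate 1 at 33 h and 0.100 without expanded replicate 2. The signal peptidase subunits Spcs1 and Spcs3 were called at no step before this one. Spcs1 stood at 35 and 37.8 RPKM when naive, 41.4 and 42.6 after 3 h, 48.1 and 46.5 after 10 h and 40.6 and 48.3 after 33 h. On day 4 Spcs1 was at 73.7 and 84.6 RPKM in expanded cells and 381 and 403 RPKM in plasmablasts. The expanded libraries of Spcs1 lay above all earlier ones. Spcs3 stood at 26.1 and 26.1 RPKM in the naive libraries, 33.1 and 26.4 in those from 3 h, 29 and 26.4 from 10 h and 32.6 and 37.5 from 33 h. On day 4 Spcs3 stood at 65.8 and 69 RPKM once expanded and at 254 and 243 RPKM as plasmablasts. They rose 1.78-fold (adjusted p = 0.0374) and 1.92-fold (adjusted p = 0.00799) to expanded cells. Without replicate 1 at 33 h the adjusted p was 0.331 for Spcs1 and 0.0909 for Spcs3, and without expanded replicate 2 it was 0.317 and 0.0605. Of the 7 SRP genes, glmTreat called 0 up at this step, with 1 at an unadjusted p under 0.05, and DESeq2 called 0.

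Of the chaperones and isomerases, Dnajb9, Pdia4, Pdia6, Ero1lb, Hsp90b1 and Dnajc3 rose from 33 h to expanded cells. Dnajb9, a J-domain protein that holds the stress sensor Ire1 in check, stood at 13 and 13.8 RPKM (naive), 33.5 and 37.8 (3 h), 25.3 and 21.7 (10 h) and 15.5 and 17.1 (33 h). On day 4 Dnajb9 was at 30.7 and 31.7 RPKM (expanded) and 131 and 124 RPKM (plasmablasts). Before day 4 its level was highest at 3 h, and expanded cells were 1.92-fold above 33 h (log2 fold change 0.94, SE 0.10, adjusted p = 0.00655), with an adjusted p of 0.0676 without replicate 1 at 33 h. Pdia4 stood at 165 and 167 RPKM when naive, 50.7 and 69.8 after 3 h, 143 and 137 after 10 h and 182 and 231 after 33 h. On day 4 Pdia4 was at 412 and 474 RPKM in expanded cells and 1787 and 1829 RPKM in plasmablasts. It was 2.15-fold higher in expanded cells than at 33 h (log2 fold change 1.10, SE 0.14, adjusted p = 0.00452), with adjusted p of 0.0641 without replicate 1 at 33 h and 0.0540 without expanded replicate 2. Pdia6 rose 1.95-fold (adjusted p = 0.00980; 0.124 and 0.0550 without the same libraries). The rises were 2.33-fold for Ero1lb (adjusted p = 1.29e-04), 2.15-fold for Hsp90b1 (adjusted p = 0.00792, and 0.0605 without expanded replicate 2) and 2.06-fold for Dnajc3 (adjusted p = 9.13e-04). Over the whole list, 11 members were called up at this step without replicate 1 at 33 h or without expanded replicate 2, and 28 without replicate 2 at 33 h.

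The libraries at 33 h differed in the level of this machinery. Replicate 2 was above replicate 1 in 49 of the 51 tested members, with a median log2 ratio of 0.22, whereas among all tested genes it was higher in 48.4%, with a median of -0.011. In expanded cells replicate 2 was above replicate 1 in 45 of 51, with a median of 0.085, and in plasmablasts in 37 of 51. The summed plasmablast markers (240 and 377 CPM) and the share of constant immunoglobulin genes (1.06% and 1.35%) of the 33 h libraries differed too, and the part of this in the members' levels was not tested. Without replicate 2 at 33 h, Calr, Dnajb11, Dnajc3, Pdia5 and Pdia6 lost their call from 10 h to 33 h. Their log2 fold changes were then 0.63, 0.72, 0.80, 2.18 and 0.79. Of all 51, 25 were called higher at 33 h than in naive cells (background 22.3%), and 13 by DESeq2 (background 16.9%). Without replicate 2 at 33 h fewer were called there too.

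**Figure D4:**
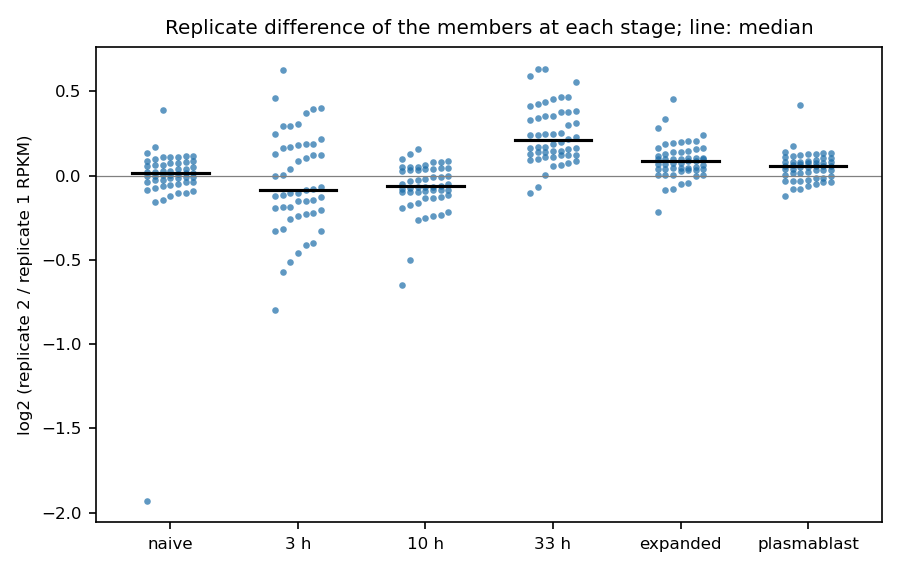
Log2 ratio of replicate 2 to replicate 1 for each member at each stage (points), with lines at the medians; Pdia5 at 3 h is not drawn, as replicate 2 had 0 counts. At 33 h, 50 of 52 points lie above 0, and the lowest point in naive cells is Sec61g, with 25 and 5 counts.

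From expanded cells to plasmablasts nearly the whole apparatus rose: all 12 genes of degradation and ufmylation, 11 of 12 chaperones and cofactors, 6 of 7 genes of disulfide formation, all 5 of the translocon, all 3 tested TRAP genes, 4 of 5 of signal peptidase and 4 of 7 of SRP and its receptor. In 49 of the 51 tested members (96.1%) both plasmablast libraries lay above all 10 others, against 19.3% of all tested genes. The exceptions were Canx and Ero1l. The count of 45 members called up was the same without any of the 4 libraries compared. The largest rise was that of Edem2, 7.89-fold (log2 fold change 2.98, SE 0.11, adjusted p = 1.89e-09), followed by Edem1 at 6.43-fold (adjusted p = 5.58e-07), Derl3 at 6.16-fold (adjusted p = 1.01e-06), Pdia5, which rests on few counts, and Sec11c. In signal peptidase the accessory subunit Spcs2 rose 3.08-fold, from 101 and 105 RPKM to 307 and 328 RPKM. The smallest called rise in degradation was that of Ufm1, the ubiquitin-like modifier of ufmylation. Ufm1 stood at 9.95 and 10.0 RPKM in the naive libraries, 20.6 and 17.8 in those from 3 h, 12.2 and 12.2 from 10 h and 9.35 and 10.5 from 33 h. On day 4 Ufm1 stood at 16.4 and 16.7 RPKM once expanded and at 32.7 and 33.4 RPKM as plasmablasts. Ufm1 rose 2.00-fold (log2 fold change 1.0, SE 0.093, adjusted p = 4.64e-04).

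Within the translocon the largest and smallest rises were those of Sec61b, 3.97-fold (log2 fold change 1.99, SE 0.10, adjusted p = 4.37e-08), and Sec62, 2.38-fold (log2 fold change 1.25, SE 0.094, adjusted p = 1.12e-05). Sec62, which serves proteins that enter after translation, stood at 35.3 and 34.3 RPKM (naive), 56.9 and 47.7 (3 h), 27.6 and 28.3 (10 h) and 23.5 and 23.5 (33 h). On day 4 Sec62 was at 29.1 and 31.3 RPKM (expanded) and 69.3 and 74.5 RPKM (plasmablasts). The libraries from 10 h to expansion thus lay below both naive ones. Sec61a1, the channel itself, stood at 63.7 and 66.3 RPKM when naive, 138 and 125 after 3 h, 88.3 and 86.5 after 10 h and 101 and 135 after 33 h. On day 4 Sec61a1 was at 197 and 216 RPKM in expanded cells and 636 and 647 RPKM in plasmablasts. Sec61a1 had risen at 3 h. Its partner Sec63, a J-domain protein of the membrane, stood at 13.7 and 14.4 RPKM in the naive libraries, 25.2 and 18.9 in those from 3 h, 11.7 and 13 from 10 h and 12.9 and 14.4 from 33 h. On day 4 Sec63 stood at 22.5 and 23.2 RPKM once expanded and at 60.3 and 62.4 RPKM as plasmablasts. Both rose at the last step, by 3.11-fold and 2.68-fold. The gamma subunit Sec61g rested on few reads, 5 to 399 counts per library with 0.249 to 18.1 RPKM, and its values are uncertain where reads are shared with near-identical copies. In TRAP, Ssr2 rose 4.68-fold (adjusted p = 5.91e-08) and Ssr1 2.26-fold (adjusted p = 8.79e-04). Ssr1 stood at 10.2 and 10.4 RPKM (naive), 21.5 and 15 (3 h), 15.4 and 16 (10 h) and 16.4 and 20.6 (33 h). On day 4 Ssr1 was at 29.2 and 31.2 RPKM (expanded) and 66.7 and 69.8 RPKM (plasmablasts). Both plasmablast libraries were the highest for Ssr1, as they were for the subunit that was not tested, Ssr4. Ssr4 stood at 76.9 and 83.5 RPKM when naive, 71.4 and 83.1 after 3 h, 110.1 and 104 after 10 h and 124 and 134 after 33 h. On day 4 Ssr4 was at 174 and 187 RPKM in expanded cells and 591 and 615 RPKM in plasmablasts. In a fit that kept the X chromosome its rise from expanded cells to plasmablasts was a log2 fold change of 1.75 (SE 0.095, adjusted p = 1.13e-07).

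The SRP branch had 5 of 7 genes called up at 3 h and 4 of 7 at the last step. Srprb, the beta subunit of the SRP receptor, rose most within it at the last step. Srprb stood at 18.9 and 19 RPKM in the naive libraries, 54 and 50.2 in those from 3 h, 33.5 and 34.5 from 10 h and 28.9 and 35.6 from 33 h. On day 4 Srprb stood at 48.2 and 54.8 RPKM once expanded and at 186 and 196 RPKM as plasmablasts. Srprb rose 3.71-fold at the last step (log2 fold change 1.89, SE 0.11, adjusted p = 1.38e-07). Srpr, the alpha subunit, stood at 44.4 and 41.9 RPKM (naive), 91.8 and 86.6 (3 h), 57.5 and 56.6 (10 h) and 72.7 and 85.8 (33 h). On day 4 Srpr was at 90.8 and 100.5 RPKM (expanded) and 278 and 299.9 RPKM (plasmablasts). Srpr rose 3.02-fold (log2 fold change 1.60, SE 0.096, adjusted p = 4.76e-07). Of the particle, Srp9 and Srp68 rose 2.46-fold and 1.84-fold, whereas Srp14, Srp54a and Srp72 were not called, at 1.46-fold, 1.48-fold and 1.34-fold. Srp72 had the smallest difference of the branch at this step. It stood at 54.7 and 60.1 RPKM when naive, 90.1 and 110.3 after 3 h, 91.5 and 87.2 after 10 h and 77.4 and 80.8 after 33 h. On day 4 Srp72 was at 105 and 105 RPKM in expanded cells and 134 and 148 RPKM in plasmablasts. The F-test for a change of any size put all 3 above expanded cells, with adjusted p of 1.59e-04, 4.36e-04 and 0.00249. Srp54a has near-identical paralogs in the mouse, so its counts are uncertain where reads were shared. By library, Srp54a ranged from 6.7 to 17.7 RPKM.

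Among chaperones the largest rise at the last step was that of Creld2, 4.78-fold (log2 fold change 2.26, SE 0.15, adjusted p = 6.72e-07), and the smallest difference that of calnexin (Canx), 1.15-fold, which was not called (adjusted p = 1). Canx, the membrane-bound lectin partner of calreticulin, stood at 55.9 and 52.4 RPKM in the naive libraries, 211 and 121 in those from 3 h, 136 and 144 from 10 h and 100.5 and 131 from 33 h. On day 4 Canx stood at 151 and 162 RPKM once expanded and at 183 and 178 RPKM as plasmablasts. Its largest single value was in replicate 1 at 3 h, and the 2 libraries of that stage were far apart. BiP (Hspa5) stood at 245 and 256 RPKM (naive), 647 and 697 (3 h), 433 and 378 (10 h) and 515 and 670.2 (33 h). On day 4 Hspa5 was at 796 and 838 RPKM (expanded) and 2349 and 2309 RPKM (plasmablasts). Hspa5 rose 2.85-fold at the last step (log2 fold change 1.51, SE 0.11, adjusted p = 4.02e-06). Hyou1, which exchanges the nucleotide of BiP, stood at 46.8 and 45 RPKM when naive, 104 and 99.5 after 3 h, 76.1 and 78.6 after 10 h and 87.5 and 119.6 after 33 h. On day 4 Hyou1 was at 170.4 and 201 RPKM in expanded cells and 476 and 502 RPKM in plasmablasts. Hyou1 rose 2.63-fold. Dnajc10, a disulfide reductase with a J domain, rose 2.07-fold, from 44.8 and 44.9 RPKM in expanded cells to 93.3 and 92.4 RPKM in plasmablasts. In disulfide formation, Pdia5 had 63 counts in plasmablasts against 15 in expanded cells, a ratio of 5.92 with an exact 95% interval of 3.33 to 11.2 for counting error only.

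To ask whether the last step was larger than the one before it, the difference of both steps was tested itself. In 35 of 51 members (68.6%, background 16.4%) the log2 change from expanded cells to plasmablasts exceeded that from 33 h to expanded cells, by the quasi-likelihood F-test at an adjusted p under 0.05, with a median excess of 0.89. The largest excess among well counted genes was that of Edem2, 1.90 (SE 0.18, adjusted p = 8.86e-06), followed by Edem1 at 1.54 (adjusted p = 0.00206) and Spcs1 at 1.48 (adjusted p = 6.26e-05). Edem3 and Canx were the members with a negative difference, -0.53 (SE 0.19, adjusted p = 0.0528) and -0.23 (SE 0.35, adjusted p = 0.662), and neither passed. For Edem3 the difference passed under 4 alternatives, with library size alone (adjusted p = 0.00227), with no filter on low counts (0.0200), with at least 10 counts in every library (0.0486) and with the compared libraries alone (0.00974). Other members without a call included Ssr3, at a difference of 0.10 (SE 0.22), Selenos, at 0.24 (SE 0.21), and Ero1lb, at 0.46 (SE 0.18), a miss that does not show equal steps. Without expanded replicate 1 the count was 22, and it was 37 without replicate 1 at 33 h.

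**Figure D5:**
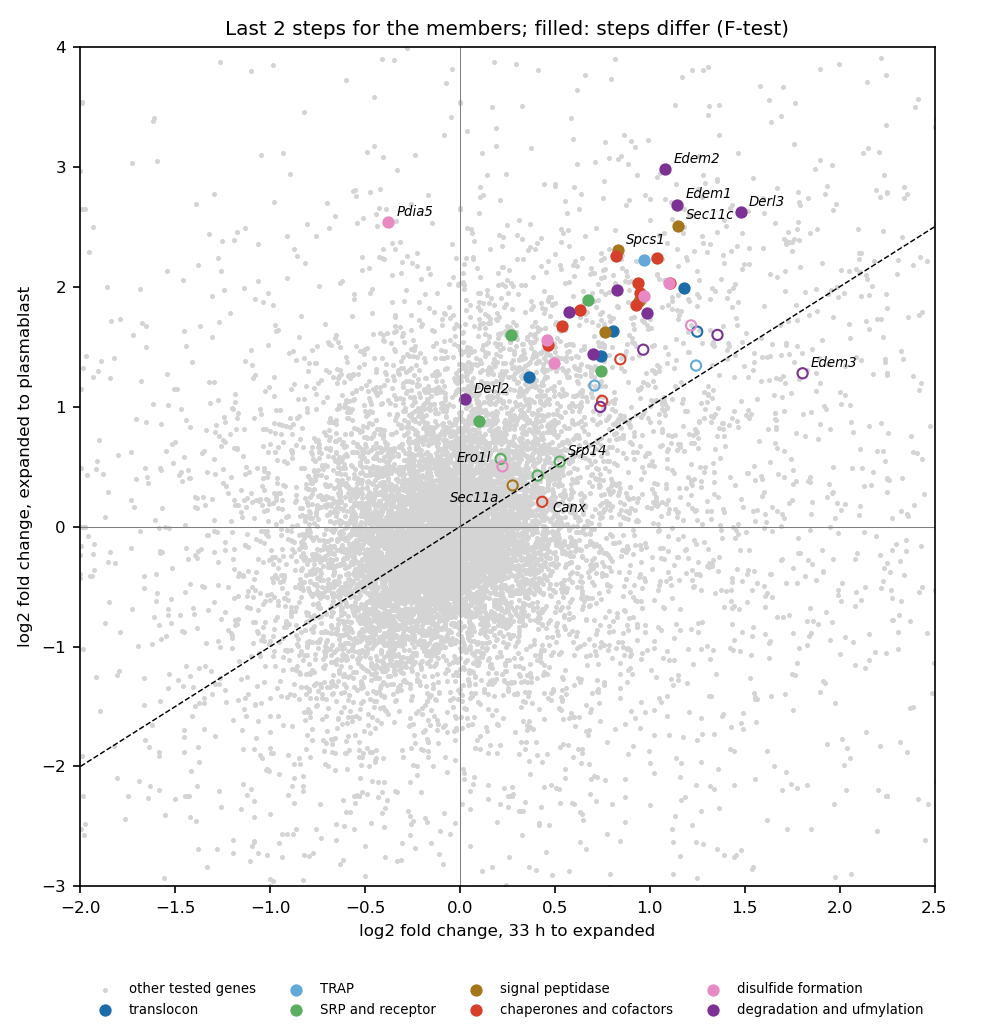
Log2 fold change from expanded cells to plasmablasts (vertical) against that from 33 h to expanded cells (horizontal) for the 51 tested members, coloured by role, over the other tested genes in grey, 889 of which lie outside the axes. Filled points are the 35 members whose steps differed by the F-test, and the dashed line marks equal steps. Most members lie above the line, with Edem3 and Canx below it.

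Paralogs within the machinery differed in both level and timing. Of the catalytic subunits of signal peptidase, Sec11a stood at 48 and 49.3 RPKM in the naive libraries, 76 and 65.2 in those from 3 h, 73.3 and 74.7 from 10 h and 67.5 and 73.5 from 33 h. On day 4 Sec11a stood at 85.5 and 85.3 RPKM once expanded and at 108 and 109 RPKM as plasmablasts. It was not called at any of the 5 steps, and its change from naive cells to plasmablasts was 2.23-fold against 21.2-fold for Sec11c. Of the derlins, Derl1 stood at 16.7 and 15 RPKM (naive), 23.1 and 20.2 (3 h), 18 and 19.1 (10 h) and 15.5 and 16.9 (33 h). On day 4 Derl1 was at 23.8 and 24.4 RPKM (expanded) and 80.1 and 86.7 RPKM (plasmablasts). Derl1 was called up at the last step alone. Derl2 stood at 10.5 and 11.2 RPKM when naive, 15.6 and 17 after 3 h, 12.6 and 11.8 after 10 h and 12.5 and 12.9 after 33 h. On day 4 Derl2 was at 12.9 and 13 RPKM in expanded cells and 25.9 and 28.3 RPKM in plasmablasts. From naive cells to plasmablasts Derl1 rose 5.27-fold, Derl2 2.5-fold and Derl3 63.3-fold, the largest rise among all members. Of the oxidases, Ero1l stood at 6.19 and 5.94 RPKM in the naive libraries, 28.4 and 26.2 in those from 3 h, 17.7 and 16.6 from 10 h and 14.3 and 16.7 from 33 h. On day 4 Ero1l stood at 17.7 and 18.5 RPKM once expanded and at 24.6 and 26.6 RPKM as plasmablasts. Ero1l was the single member whose highest mean level was not in plasmablasts, with its peak at 3 h (log2 fold change 2.17, SE 0.10, adjusted p = 7.39e-09), the stage at which Ero1lb had fallen (log2 fold change -1.25, SE 0.10, adjusted p = 1.17e-05). Of the isomerases other than Pdia4, Pdia5 and Pdia6, Pdia3 stood at 161 and 164 RPKM (naive), 159 and 173 (3 h), 218 and 186 (10 h) and 297 and 349 (33 h). On day 4 Pdia3 was at 447 and 462 RPKM (expanded) and 1157 and 1190.2 RPKM (plasmablasts). The 33 h libraries of Pdia3 lay above all 6 earlier ones. P4hb stood at 95.2 and 98.5 RPKM when naive, 119 and 107 after 3 h, 130.3 and 122 after 10 h and 155 and 170.1 after 33 h. On day 4 P4hb was at 220.4 and 226 RPKM in expanded cells and 656 and 658 RPKM in plasmablasts. Both rose at the last step, 2.58-fold and 2.94-fold, and were not called at any of the 4 steps before.

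In the first hours after LPS the share of members that rose was near that of all genes. At 3 h, 13 members rose (25.5%, background 21%): Sec61a1, Ssr1, the SRP genes Srp54a, Srp68, Srp72, Srpr and Srprb, the chaperones Hspa5, Hyou1, Canx and Dnajb9, the oxidase Ero1l and Ufm1. The largest of these changes were 4.49-fold for Ero1l, 3.06-fold for Canx, 2.75-fold for Srprb and 2.68-fold for Hspa5. For Ssr1 and Srp72 the call was lost without single libraries, at adjusted p up to 0.583 without replicate 1 at 3 h for Ssr1 and 0.286 without replicate 2 at 3 h for Srp72. Another 6 members fell at 3 h (11.8%, background 24.3%): Derl3 (log2 fold change -1.60, SE 0.25, adjusted p = 9.38e-04), Pdia4 (log2 fold change -1.46, SE 0.14, adjusted p = 2.36e-05), Sdf2l1 (log2 fold change -1.43, SE 0.21, adjusted p = 7.24e-04), Ero1lb, Sec11c (log2 fold change -0.81, SE 0.090, adjusted p = 0.00768) and Syvn1 (log2 fold change -0.75, SE 0.10, adjusted p = 0.0439). Syvn1, the ubiquitin ligase Hrd1, stood at 65.4 and 63.8 RPKM in the naive libraries, 39.9 and 37.2 in those from 3 h, 40.9 and 43.7 from 10 h and 53.9 and 51.5 from 33 h. On day 4 Syvn1 stood at 77.3 and 93.9 RPKM once expanded and at 218 and 246 RPKM as plasmablasts. The fall of Syvn1 was not called without naive replicate 1, naive replicate 2 or replicate 2 at 3 h (adjusted p = 0.108, 0.0703 and 0.0777), and that of Sec11c not without naive replicate 2 (adjusted p = 0.0553). From 3 h to 10 h, Sdf2l1 and Pdia4 came back up (log2 fold change 1.21, SE 0.14, adjusted p = 5.12e-04 for the latter), while Herpud1 (log2 fold change -1.27, SE 0.15, adjusted p = 5.39e-04), Sec62 (log2 fold change -0.90, SE 0.094, adjusted p = 0.00257) and Sec63 (log2 fold change -0.83, SE 0.12, adjusted p = 0.0271) fell. The fall of Sec63 had an adjusted p of 0.402 without replicate 1 at 3 h and 0.144 without replicate 1 at 10 h.

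Counted by the first step at which a member was called up, 3 h was the start for 13 (25.5%, against 21% of all tested genes), 10 h for 2 (3.92% against 16.7%), 33 h for 11 (21.6% against 6.66%), the expanded stage for 12 (23.5% against 3.76%) and the plasmablast stage for 11 (21.6% against 7.07%). Srp14 and Sec11a were called up at no single step (3.92%, against 44.8% of all tested genes). Over the last 3 steps alone, 26 members were called up by 33 h or in expanded cells (51%, against 15.6% of all tested genes). Another 19 were called up at the step to plasmablasts and not at the 2 before it (37.3% against 10.3%). A missing call beyond 1.5-fold does not show a missing rise. The F-test for a change of any size placed 27 of the 51 members higher at 33 h than at 10 h. It placed 45 higher in expanded cells than at 33 h. The share of all tested genes by that test is not given here. The lowest mean level of the 52 genes was in naive cells for 31, at 3 h for 11, at 10 h for 6 and at 33 h for 4.

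Other genes of the ER, 77 listed by name and 76 found in the table, 74 of them tested, are given for comparison, and the differences between the lists were not tested. From naive cells to 3 h, 15 of 74 rose (20.3%, background 21%) and 13 fell (17.6%, background 24.3%), and from 3 h to 10 h, 13 rose (17.6%, background 17.4%) and 3 fell (4.05%, background 13.4%). From expanded cells to plasmablasts 37 of 74 rose (50%, background 13.9%) and 2 fell (2.7%, background 12.2%), with a median log2 fold change of 0.84 against 1.63 for the members. From 10 h to 33 h, 3 rose (4.05%, background 10.1%) and 2 fell (2.7%, background 4.45%), and from 33 h to expanded cells 10 rose (13.5%, background 6.94%) and 1 fell (1.35%, background 3.66%). The largest rises at the last step were those of Selenom, Fkbp11 and Txndc5. Selenom, a thioredoxin-like selenoprotein, stood at 1.75 and 2.65 RPKM in expanded cells and 83.9 and 89.7 RPKM in plasmablasts (log2 fold change 5.31, SE 0.22, adjusted p = 2.51e-09). Fkbp11, a prolyl isomerase, stood at 0.988 and 0.575 RPKM at 10 h, 5.32 and 9.3 RPKM at 33 h, 11.5 and 13.7 RPKM in expanded cells and 229 and 219 RPKM in plasmablasts, with log2 fold changes of 3.15 from 10 h to 33 h (adjusted p = 1.10e-04) and 4.15 at the last step (adjusted p = 2.77e-07). Txndc5, of the disulfide isomerase family, stood at 109.9 and 111 RPKM (naive), 77.1 and 86.4 (3 h), 51.2 and 45.1 (10 h) and 87.4 and 115 (33 h). On day 4 Txndc5 was at 235 and 266 RPKM (expanded) and 2728 and 2679 RPKM (plasmablasts). Its last step was a log2 fold change of 3.43 (SE 0.13, adjusted p = 2.04e-09). The genes that fell were Cnpy3, a cofactor of GRP94 for Toll-like receptors, from 37 and 38.2 to 5.87 and 5.52 RPKM (log2 fold change -2.72, adjusted p = 3.77e-09), and Tor3a, a torsin ATPase, from 19.5 and 18.1 to 6.54 and 6.05 RPKM (log2 fold change -1.58, adjusted p = 0.00339).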

How the data were processed

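RNA-Seq of polyA RNA was made from 12 libraries of mouse splenic B cells, 2 biological replicates at each of 6 stages. The values are raw gene counts deposited by the authors, who aligned reads to mm10 and counted them with featureCounts of Rsubread and its inbuilt Entrez annotation. The submitters' processing notes name CASAVA 1.8.2, and other versions are not given in the sources used here. The deposited gene length was used for RPKM, with TMM-scaled library sizes. Counting used no strand setting that the sources state. Total counts ran from 23026619 to 60585587 (median 37839944.5).

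Following the study's methods, IDs without a match (1904), mitochondrial (15), X and Y (1279), rRNA (33) and variable immunoglobulin genes (248) were removed, which left 23700 genes, 12750 of them after filterByExpr. All 12 libraries were fitted together without a block by edgeR 4.0.16 (R 4.3.3, limma 3.58.1) with TMM, robust quasi-likelihood dispersions and glmTreat against 1.5-fold, with Benjamini-Hochberg adjustment at 0.05 over all tested genes. Standard errors were derived from the log2 fold change and the quasi-likelihood F. The difference of the last 2 steps was tested as a contrast by the F-test. Ssr4, on the X chromosome, was fitted with the removed genes kept. The pipeline was tested on simulated data. Alternatives were DESeq2 1.42.0 (Wald test or size factors), library size alone, other filters and dispersions, a replicate block, the compared libraries alone, keeping the removed genes, and leaving out each library. Promoter windows came from RefSeq (GRCm38.p6) with python 3.11.15, pandas 2.3.3 and numpy 2.4.6, and figures from matplotlib 3.10.9.

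The members and all lists were chosen with earlier results of these data known. Genes named with values in every library were those called up at 33 h or in expanded cells and the highest and lowest change to plasmablasts in each role, besides genes called down at any step, sets of paralogs, and the 3 other ER genes with the largest rise and fall to plasmablasts, of which 2 fell. Other genes named were chosen after their values were seen. The labels state that the replicates are biological, and p-values measure the spread between 2 libraries per stage.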

Additional observations from a re-analysis of the deposited data

How the results depend on the processing

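No change called in the main fit or in an alternative reversed its direction under any alternative that was run. The signs of uncalled changes were not compared. The steps from expanded cells and from naive cells to plasmablasts kept counts of 45 and of 50 to 51 members called up when single libraries were left out. Leaving out a library moved the other counts of called members as follows: 7 to 12 up from 10 h to 33 h (7 without replicate 2 at 33 h), 11 to 28 up from 33 h to expanded cells (11 without replicate 1 at 33 h or without expanded replicate 2, 28 without replicate 2 at 33 h), 14 to 25 up and 0 to 1 down from naive cells to 33 h (14 without replicate 2 at 33 h, 0 without replicate 1 at 33 h), 2 to 6 down from 3 h to 10 h (6 without replicate 2 at 3 h, against 3), and 22 to 37 for unequal last steps (22 without expanded replicate 1). The counts up and down from naive cells to 3 h, and up from naive cells to expanded cells, moved by less in proportion and are not listed. DESeq2 called 13 members up from naive cells to 33 h against 25, and lost Calr, Dnajb11 and Pdia5 at 33 h and Herpud1, Sel1l and Spcs1 in expanded cells. With library size alone, which shifts the median log2 fold change of all genes from 0.018 to 0.35 at the step from 3 h to 10 h, from -0.031 to -0.24 at the step to 3 h and from -0.046 to -0.38 at the last one, 6 members were called up and 1 down from 3 h to 10 h, and Derl2, Dnajc10, Srp68 and Ufm1 lost their call at the last step. The share of all tested genes called up also moved in these fits, so the shares given above are not their background. The causes were not tested.

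Over all tested genes, the deviations of same-numbered libraries had correlations from -0.14 to 0.084 over the 8 pairs of stages. Such correlations over all genes cannot show whether the samples were paired or whether the members alone share a replicate difference. A fit with the replicate block called 11 members up from 10 h to 33 h, 23 from 33 h to expanded cells and 45 from expanded cells to plasmablasts. With 2 libraries per stage, a change near 1.5-fold or a gene with few counts, such as Pdia5, is at the limit of what can be called.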
